A study of Mus musculus with 12 samples.

Results

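The genes described here are a listed set of 48 DNA repair and damage checkpoint genes, of 53379 genes counted. They cover homologous recombination, the processing of broken ends, checkpoint signalling, end joining, base excision and single-strand break repair, the Fanconi anaemia pathway and mismatch repair. The rule lists them by name and sets no threshold on a measured value, but the list was drawn up with earlier results of these data known. Of the members, 47 were among the 13442 genes with enough reads to be tested. The exception was Atrip, the partner of the checkpoint kinase Atr, which had between 0 and 2 reads in every library. Whether that reflects little Atrip RNA or how its reads were counted was not tested.

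The RNA came from the external granule layer (EGL), cut by laser capture from the central lobules of the cerebellum of C57BL/6 mice at postnatal day 6. The wild-type (WT) group held control littermates, and the knockout (KO) group held mice with a conditional knockout of SnoN, the transcriptional regulator encoded by Skil. The labels used here do not name the Cre line, the deleted part of Skil or the alleles that the controls carry. There were 6 libraries per group, written as WT1 or KO2 after their titles. Of these, WT2 and KO4 were marked as outliers by the submitters' robust principal component analysis and stayed out of the comparison of the other 5 and 5, and their values are given for Skil and for the members with the smallest p-values. KO2 has a knockout title and a genotype tag that says wild type, and it was kept as knockout. Whether the libraries of a group are separate animals is not in the labels, and the p-values cover only the spread among these libraries, part of which may be technical.

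Cells that divide copy their DNA in each cycle, and breaks or stalled forks that arise then are handled by checkpoint kinases, which hold the cycle, and by repair complexes. Recombination copies the lost sequence from the sister chromatid and needs a replicated template, whereas end joining seals the ends directly and works throughout the cycle. Granule neuron precursors in the EGL divide many times after birth before they leave the cycle, and inherited defects of several of these genes in people or mice disturb the growth of the brain.

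Total gene counts lay between 7520076 in WT6 and 15083086 in KO8, and the number of reads limits the precision of rarely read members more than that of abundant ones. Skil had 38.5 to 57.8 CPM (counts relative to library size, per 1e+06, scaled by the TMM factors of edgeR) in the 5 WT libraries and 20.9 to 36.7 in the 5 KO libraries, without overlap, and KO2 had 36.1. The marked libraries lay further out in the direction of their labels, at 76.5 in WT2 and 14.0 in KO4. By edgeR's quasi-likelihood test the adjusted p was 0.124, at a log2 fold change of -0.70. The 9 precursor markers, among them Atoh1, summed to 2255 to 2451 CPM in WT and 2232 to 2652 in KO, and the 12 markers of cycling cells to 2425 to 2835 and 2390 to 2763. Markers of other cells were present too: those of Purkinje cells summed to 260 to 370 CPM in WT, 320 to 575 in KO, 713 in WT2 and 296 in KO4. The 10 markers of Bergmann glia and astrocytes summed to 681 to 1139 CPM in WT, 910 to 1449 in KO, 2266 in WT2 and 973 in KO4, and their part in the results below was not tested. The 9 markers of granule neurons summed to 3446 to 5699 CPM in WT and 3814 to 7200 in KO. The 8 of oligodendrocytes summed to 312 to 383 and 306 to 326. Single genes of these lists and of the Purkinje list were low. Gabra6 of mature granule neurons, Skor2 of Purkinje cells and Mog of oligodendrocytes were under 1 CPM in all 10 libraries. In bulk tissue, fewer cells of a type and less RNA per cell cannot be told apart.

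The repair genes of the WT layer spanned a wide range of levels. Levels of different genes are compared as CPM per kilobase of exon. Apex1, the endonuclease that cuts abasic sites, had the highest value at 42.5 ± 7.19 CPM per kilobase (SD, n = 5), followed by Xrcc5, the larger subunit of the Ku end-binding protein, at 32.8 ± 1.79. Parp1, which senses strand breaks and builds poly(ADP-ribose), stood at 32.3 ± 4.24, so that Xrcc5 and Parp1 did not differ beyond their spread. Next came the gap-filling polymerase Polb at 16.1 ± 1.203, the mismatch sensor Msh6 at 13.4 ± 1.99, the checkpoint kinase Chek1 at 11.3 ± 0.417 and the end-joining factor Nhej1 at 10.3 ± 2.71. The intervals of 1 SD around Polb and Msh6 overlapped, as did those of Msh6 and Chek1 and of Chek1 and Nhej1. At the low end of the tested members were the nuclease Dclre1c at 0.266 ± 0.0416, the kinase Atr at 0.646 ± 0.0924, Fanci at 0.857 ± 0.255 and the helicase Wrn at 0.880 ± 0.136 CPM per kilobase. The length used is that of all annotated exons of a gene together. It was 23629 bases for Atr, the longest, against a median of 5927 for tested members. Atr had 15.3 CPM, so its low place depends in part on that length. The median tested member had 3.41 CPM per kilobase against 4.63 for all genes tested, and 15 of 47 members lay above the latter value.

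**Figure D1:**
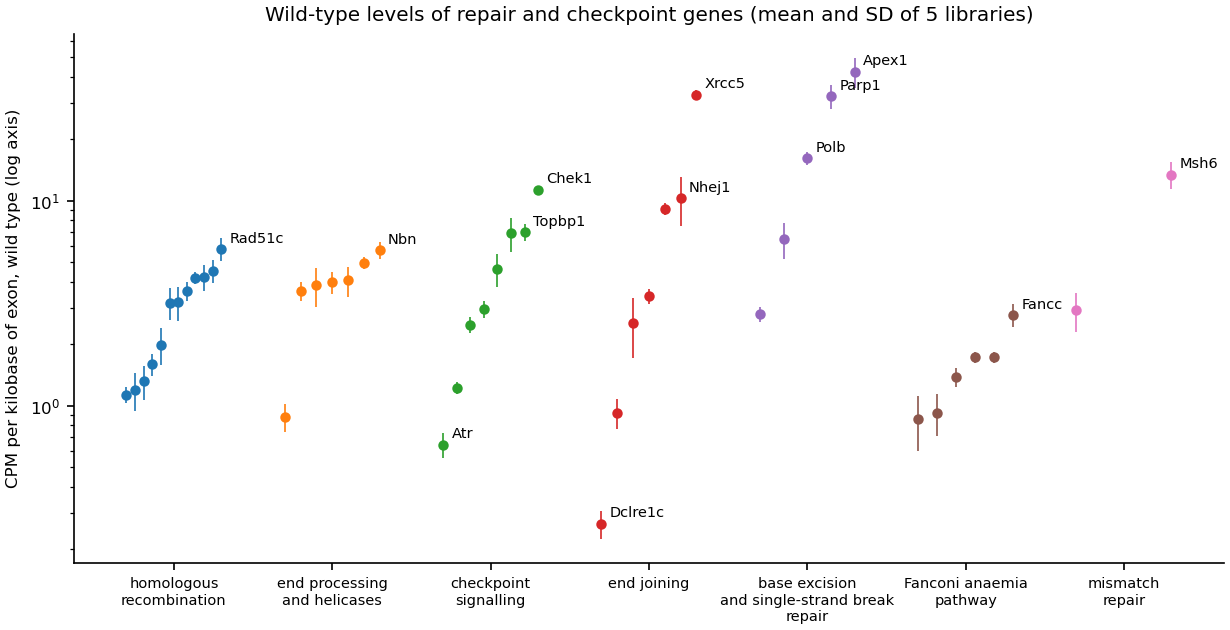
WT level of each tested member, in CPM per kilobase of exon on a log axis, by role group. Points are means of 5 WT libraries and bars are 1 SD. Apex1, Xrcc5 and Parp1 lie at the top and Dclre1c at the bottom, and Atrip, at 0.0103 CPM per kilobase, is not drawn.

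Some of these levels depend on how reads in overlapping genes were counted. The kit does not mark strand, and 24 of 48 members share exon bases with another annotated gene. Apex1 shares 61.7% of its exon bases with Pip4p1 on the opposite strand, Rad54b shares 35.9%, nearly all with Fsbp, and Lig3 shares 25.1% with Rffl. Fancc shares 18.6%, Atrip 16.04%, Fanci 15.9%, Rad54l 15.4%, Trp53bp1 15.04% and Fanca 10.5%. The levels of these 9 genes are uncertain for that reason, while Chek2, Topbp1, Xrcc1, Brca1, Chek1, Blm and Xrcc5 share no exon bases with another gene.

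The comparison of KO with WT asked whether the RNA of these genes differs between the layers of SnoN conditional knockout and control mice. After adjustment over all genes tested, 0 of 47 members passed 0.05, against 3 of 13442 genes or 0.0223%, and the smallest adjusted p of a member was 0.131, for Chek2. At an unadjusted p under 0.05 there were 8 members or 17.0%, 1 higher and 7 lower in KO, against 21.8% of all genes tested, 11.8% higher and 9.97% lower. The shares of 17.0% and 21.8% were not tested against each other. By direction, 7 of 47 lower was above the 9.97% of all genes, and 1 of 47 higher was under the 11.8%. The count of 8 became 4 without WT1 (16.4% of all genes tested), 5 without KO2 (14.3%) or KO3 (14.1%) and 11 without KO5 (35.5%). In the same 5 against 5 libraries 24 members had a higher and 23 a lower fitted value in KO, with a median log2 fold change of 0.02 against 0.00133 over all genes tested. DESeq2 called 1 member, Chek2 (log2 fold change -0.57, adjusted p = 0.0320), and 3.34% of all genes tested. With KO2 counted as WT, after its genotype tag, 2 members had an unadjusted p under 0.05, Chek2 (log2 fold change -0.45) and Topbp1 (0.26), against 5.52% of all genes tested.

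The intervals show how large a difference these libraries leave room for. The 95% interval of the fold change lay within 2-fold in either direction for 45 of 47 members and within 1.5-fold for 36. The members whose interval reached past 2-fold were Fanca, from -1.01 to 0.10 on the log2 scale, and Fanci, from -1.03 to 0.12. Both are rarely read members of the Fanconi pathway. The sum over all members lay between 1303 CPM in WT1 and 1495 CPM in WT6 among WT libraries, and between 1269 CPM in KO6 and 1491 CPM in KO3 among KO libraries, so the groups overlapped.

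**Figure D2:**
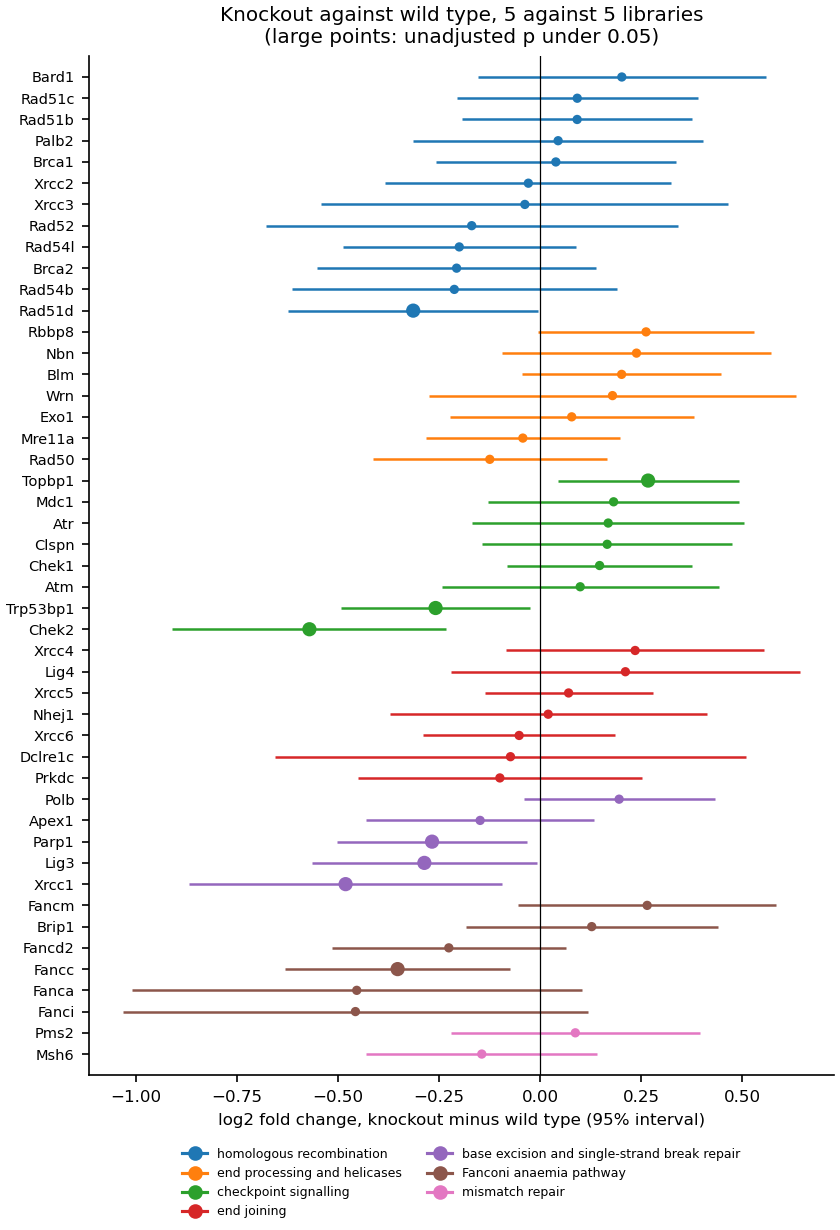
Log2 fold change of each tested member, KO minus WT, with its 95% interval, in role groups. Each point is a fit to 5 against 5 libraries. No member passed 0.05 after adjustment over all genes, and all but Fanca and Fanci have intervals within 2-fold.

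Among the checkpoint genes, 3 of 8 tested members had an unadjusted p under 0.05, 1 higher and 2 lower, against 21.8% of all genes tested. Chek2 (ENSMUSG00000029521.7, GRCm38, chromosome 5, 110839979 to 110874145, plus strand) encodes the kinase that ATM activates after double-strand breaks. Its level was 14.1, 13.6, 9.90, 16.8 and 15.04 CPM in WT1, WT3, WT5, WT6 and WT7, and 8.66, 9.80, 9.89, 9.25 and 9.07 CPM in KO2, KO3, KO5, KO6 and KO8. The KO libraries lay close together and under every WT library, but WT5, the lowest of WT, and KO5, the highest of KO, nearly touched. Chek2 had between 83 and 230 reads in the 12 libraries. The mean was 13.9 ± 2.55 CPM in WT and 9.34 ± 0.516 in KO (SD, n = 5 each). The log2 fold change was -0.57 (SE 0.16, 95% interval -0.91 to -0.23), with an unadjusted p of 0.00234, an adjusted p of 0.131 and 0.00794 by the two-sided exact permutation test, the lowest value possible with these group sizes. The marked libraries stood the other way round, at 9.81 in WT2 and 15.3 in KO4, and with all 12 libraries the log2 fold change was -0.36 with an unadjusted p of 0.0697.

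Members whose groups do not overlap were counted beside all genes tested, and 2 are too few to tell the shares apart. Chek2 and Fancd2 were the only 2 of 47, both lower in KO, against 2.35% of all genes tested, 1.31% lower and 1.04% higher in KO.

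Topbp1 (ENSMUSG00000032555.10, chromosome 9, 103305215 to 103350428, plus strand) encodes the scaffold that activates Atr at stalled forks. Its level was 68.7, 76.6, 78.3, 81.9 and 89.1 CPM in the WT libraries, in the order above, and 88.5, 108, 104, 84.4 and 89.9 CPM in the KO libraries. WT7 lay above KO2 and KO6, so the groups overlapped, and the log2 fold change was 0.27 (SE 0.11, adjusted p = 0.171). It was the only member higher in KO at an unadjusted p under 0.05 (0.0219, and 0.0238 by the two-sided exact permutation test). The marked libraries were both at the upper end, at 106 in WT2 and 101 in KO4.

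Trp53bp1 encodes the chromatin reader that shields broken ends from resection. Its level was 40.1, 31.0, 35.8, 34.2 and 35.1 CPM in WT and 27.9, 29.8, 32.9, 28.4 and 28.3 CPM in KO. WT3 lay under KO5, and the log2 fold change was -0.26 (SE 0.11, unadjusted p = 0.0323, adjusted p = 0.194). The two-sided exact permutation test gave 0.0159. The marked libraries were at 29.0 in WT2 and 43.2 in KO4, KO4 being above every other library.

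Chek1, the kinase that Atr activates and the checkpoint member with the highest level per kilobase, had 52.3, 53.3, 49.7, 51.6 and 54.9 CPM in WT and 62.8, 69.1, 51.2, 49.3 and 57.6 CPM in KO. The WT libraries differed little and the KO libraries lay on both sides of them, and the log2 fold change was 0.15 with an SE of 0.11 (adjusted p = 0.434). That fold change turned to -0.09 when each library's trend with GC content was taken out. The other tested members of the group had fold changes between 0.10 for the kinase Atm and 0.18 for the damage adaptor Mdc1, with Atr at 0.17 and the fork protein Clspn at 0.17, and all 4 had overlapping groups.

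**Figure D3:**
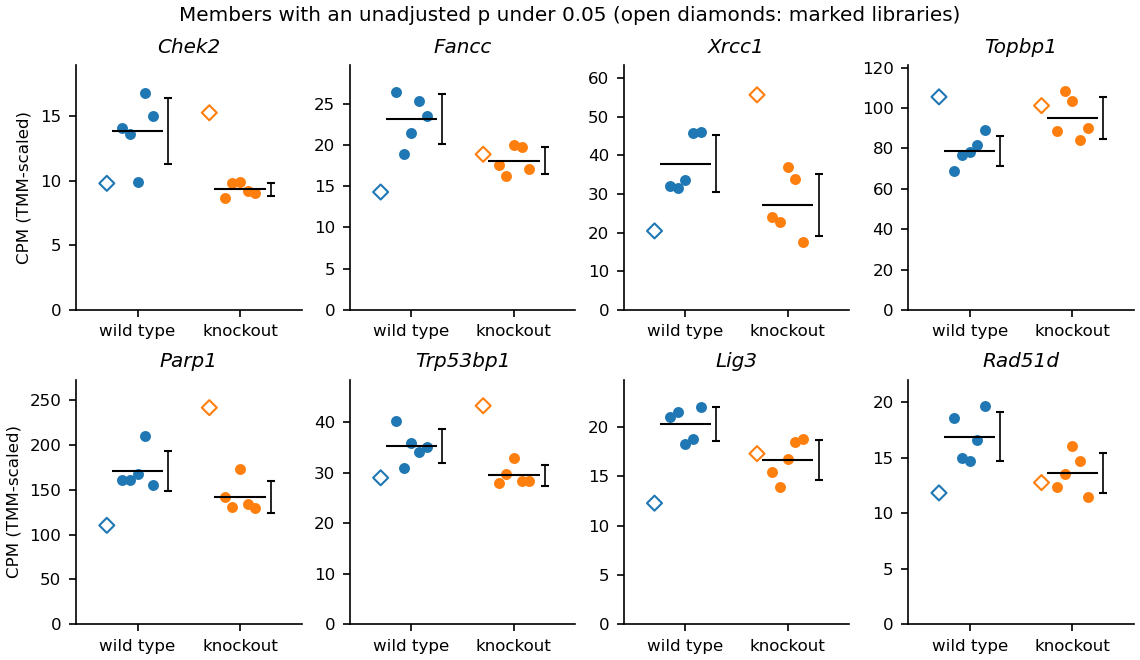
CPM of the 8 members with an unadjusted p under 0.05, by library. Filled points are the 5 WT and 5 KO libraries, lines and bars are means and 1 SD, and open diamonds are WT2 and KO4. KO4 lies above WT2 for every gene shown except Topbp1.

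Base excision and single-strand break repair was the group with the largest share of members at an unadjusted p under 0.05, 3 of 5, all lower in KO, against 21.8% of all genes tested (9.97% lower), and none passed adjustment. With the GC trend taken out it was 2 of 5, Xrcc1 and Lig3, and in the edgeR fit to 12 libraries none. The 3 work together: Parp1 marks the break, Xrcc1 is the scaffold that is drawn to it, and Lig3 is the ligase bound to Xrcc1. Xrcc1 (ENSMUSG00000051768.9, chromosome 7, 24546289 to 24573440, plus strand) had 32.2, 31.4, 33.7, 45.8 and 46.0 CPM in WT and 24.1, 22.9, 37.0, 33.9 and 17.7 CPM in KO. KO2, KO3 and KO8 lay under all WT libraries, whereas KO5 and KO6 lay among them. The log2 fold change was -0.48 (SE 0.18, unadjusted p = 0.0180, adjusted p = 0.164). By the two-sided exact permutation test the p of Xrcc1 was 0.0794, above 0.05. The marked libraries were at 20.4 in WT2 and 55.7 in KO4, under and above nearly all others.

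Parp1 (ENSMUSG00000026496.11, chromosome 1, 180568924 to 180601254, plus strand) was the member with the highest CPM. It had 161, 161, 168, 210 and 155 CPM in WT and 142, 131, 173, 134 and 130 CPM in KO. KO5 lay above all WT libraries except WT6, and the other 4 KO libraries lay under all WT libraries. The log2 fold change was -0.27 (SE 0.11, unadjusted p = 0.0281, adjusted p = 0.185), the marked libraries were at 110 in WT2 and 242 in KO4, and the fit to 12 libraries gave -0.02. Parp1 had 0.0397 by the two-sided exact permutation test.

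Lig3 had 21.03, 21.5, 18.3, 18.8 and 22.1 CPM in WT and 15.5, 13.9, 16.8, 18.5 and 18.8 CPM in KO. KO6 and KO8 lay within the range of WT, and the log2 fold change was -0.29 (SE 0.13, unadjusted p = 0.0450, adjusted p = 0.221), with 12.3 in WT2 and 17.3 in KO4. The two-sided exact permutation test gave 0.0317 for Lig3. Apex1 had 60.4, 47.4, 53.4, 71.0 and 69.7 CPM in WT and 46.0, 56.6, 49.6, 68.8 and 51.5 in KO, with a log2 fold change of -0.15 (SE 0.13), and the groups overlapped widely. Polb, the fifth member, went the other way at 0.20 (SE 0.11, adjusted p = 0.313) and stood at 141 CPM in WT2, against 56.3 to 68.1 CPM in the other WT libraries.

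Leaving out 1 library changed the calls. Without KO5, 22.9% of all genes tested passed an adjusted p of 0.05, 10.6% lower in KO, and so did 4 of 47 members, all lower. They were Xrcc1 (log2 fold change -0.62, adjusted p = 0.0102), Parp1 (-0.35, adjusted p = 0.0149), Chek2 (-0.59, adjusted p = 0.0171) and Fancc (-0.39, adjusted p = 0.0451). With no filter on low counts beyond 1 read, Xrcc1 was the only member called (adjusted p = 0.0269), with 3.49% of all genes tested.

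In the Fanconi anaemia pathway, which removes crosslinks between DNA strands, 4 of 6 members had lower and 2 higher fitted values in KO. At an unadjusted p under 0.05 there was 1 of 6, lower in KO, against 21.8% of all genes tested (9.97% lower). The median log2 fold change was -0.29, against 0.00133 over all genes tested. Fancc (ENSMUSG00000021461.17, chromosome 13, 63285043 to 63497278, minus strand) encodes a subunit of the core complex that ubiquitinates Fancd2 and Fanci. Its level was 26.4, 18.9, 21.5, 25.4 and 23.5 CPM in WT and 17.5, 16.2, 19.97, 19.7 and 17.1 CPM in KO. WT3 lay under KO5 and KO6, the other WT libraries lay above all KO libraries, and the log2 fold change was -0.35 (SE 0.13, unadjusted p = 0.0159, adjusted p = 0.158). For Fancc the two-sided exact permutation test gave 0.0238. Of the marked libraries, WT2 was under all others, with 14.3 in WT2 and 18.9 in KO4.

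Fanca, another core subunit, had 10.8, 7.52, 5.85, 8.91 and 7.39 CPM in WT and 7.10, 8.22, 7.58, 3.39 and 3.31 in KO, where KO6 and KO8 were under all WT libraries and the other 3 were among them. The log2 fold change was -0.45 (SE 0.26, adjusted p = 0.321). Fancd2, a target of the complex, had 15.03, 13.9, 13.5, 12.7 and 13.3 CPM in WT and 11.8, 12.2, 12.3, 12.2 and 10.1 in KO. The groups did not overlap, yet the log2 fold change of -0.23 had an unadjusted p of 0.119 in the fit. The two-sided exact permutation test gave 0.00794. Groups of this size that do not overlap always give that value, for Fancd2 and for Chek2, so it restates the absence of overlap. The marked libraries were at 15.01 in WT2 and 15.8 in KO4. Its partner Fanci stood at -0.46 (SE 0.27). Fancm, the translocase that recruits the core complex, had 14.6, 12.3, 16.1, 15.7 and 13.3 CPM in WT and 20.8, 14.2, 19.1, 14.0 and 18.3 in KO, and its fold change was 0.26 on the log2 scale (SE 0.15, adjusted p = 0.311). The helicase Brip1 was at 0.13, and both had overlapping groups.

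Homologous recombination was the largest group, with 12 members, and it showed little difference: 5 fitted values were higher, 7 lower, and the median log2 fold change was -0.03. Rad51d, which helps the recombination filament to form, was the only one of the 12 at an unadjusted p under 0.05, against 21.8% of all genes tested. It had 18.6, 14.9, 14.7, 16.6 and 19.6 CPM in WT and 12.4, 13.5, 16.05, 14.7 and 11.4 CPM in KO, with WT3 and WT5 within the range of KO (log2 fold change -0.31, SE 0.15, unadjusted p = 0.0469, adjusted p = 0.225). Rad51d had 0.0397 by the two-sided exact permutation test. The marked libraries, with 11.8 in WT2 and 12.7 in KO4, were both in the range of KO.

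Rad54l, the motor protein that helps strand invasion of the template, had 25.4, 29.3, 24.4, 31.4 and 29.6 CPM in WT and 26.6, 26.2, 28.4, 22.3 and 18.3 in KO, with a log2 fold change of -0.20 (SE 0.14). Brca2, which loads the recombination filament onto single strands, had 15.2, 15.4, 14.8, 22.4 and 13.8 CPM in WT and 12.1, 15.6, 17.3, 12.1 and 13.2 in KO, with WT6 well above the rest (log2 fold change -0.21, SE 0.16). Rad51c, the member of the group with the highest level per kilobase, had 24.4, 20.7, 25.3, 29.2 and 27.5 CPM in WT and 29.6, 32.4, 24.1, 20.6 and 28.6 in KO. Its value of 0.09 (SE 0.14) turned to -0.05 with the GC trend taken out, and the groups of all 3 genes overlapped. Brca1, the ubiquitin ligase of the pathway, and its partner Bard1 stood at 0.04 (SE 0.14) and 0.20 (SE 0.17). Palb2, Rad51b, Xrcc2, Xrcc3, Rad52 and Rad54b lay between -0.21 and 0.09, with adjusted p-values from 0.527 to 0.943.

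Of the genes that trim or unwind DNA ends, 5 of 7 had higher and 2 lower fitted values, with a median of 0.18. None had an unadjusted p under 0.05, against 21.8% of all genes tested. Rbbp8, which starts resection together with the Mre11a complex, had 44.2, 65.2, 47.6, 46.2 and 52.2 CPM in WT and 59.8, 75.0, 62.3, 52.4 and 56.6 CPM in KO, with WT3 above all KO libraries but KO3. Its log2 fold change was 0.26 (SE 0.13, unadjusted p = 0.0531, adjusted p = 0.236) and dropped to 0.07 with the GC trend taken out. Blm, the helicase that dissolves recombination intermediates, had 29.6, 35.6, 32.6, 37.1 and 40.8 CPM in WT and 41.0, 45.5, 36.4, 37.0 and 42.0 in KO, and its value went from 0.20 to 0.07 in the same way.

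Nbn, a subunit of the Mre11a complex, had 15.2, 12.1, 15.4, 14.5 and 15.2 CPM in WT and 15.8, 17.3, 23.2, 16.2 and 13.0 CPM in KO. KO5 was far above the others, and the log2 fold change was 0.24 (SE 0.16). The 2 other subunits stood at -0.04 (SE 0.11) for Mre11a and -0.12 (SE 0.14) for Rad50, so the 3 did not share a direction. The nuclease Exo1 was at 0.08 and Wrn at 0.18.

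The end-joining genes had 4 higher and 3 lower fitted values, a median log2 fold change of 0.02 and none at an unadjusted p under 0.05, against 21.8% of all genes tested. Xrcc4, the scaffold of the ligase, had 13.3, 13.6, 15.5, 13.6 and 15.9 CPM in WT and 18.8, 17.8, 11.7, 19.0 and 17.4 CPM in KO, with KO5 under all WT libraries and the other 4 above them (log2 fold change 0.24, SE 0.15). The ligase Lig4 had 16.2, 16.7, 15.5, 6.93 and 10.5 CPM in WT and 17.7, 12.9, 17.5, 13.1 and 15.3 in KO, with a log2 fold change of 0.21 (SE 0.21). Xrcc5 had 80.1, 86.0, 78.0, 88.5 and 86.8 CPM in WT and 92.5, 99.1, 84.6, 76.7 and 87.3 in KO, and its value of 0.07 (SE 0.10) had the narrowest interval of the 47 members, -0.14 to 0.28. Xrcc6, the other Ku subunit, stood at -0.05 (SE 0.11), the kinase Prkdc at -0.10, Dclre1c at -0.07 and Nhej1 at 0.02.

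Both mismatch repair members overlapped between the groups. Msh6 had 53.3, 47.7, 55.6, 68.6 and 65.5 CPM in WT and 45.4, 68.5, 57.0, 46.5 and 45.6 CPM in KO (log2 fold change -0.14, SE 0.14), and Pms2, which nicks the strand to be repaired, had 21.9, 16.8, 24.6, 30.8 and 24.5 and 23.7, 24.5, 28.3, 26.4 and 22.8 CPM (log2 fold change 0.09, SE 0.15). Their adjusted p-values were 0.546 and 0.751.

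WT2 and KO4 stood in the order opposite to the fitted direction for 35 of 47 members, against 73.2% of all genes tested. When both were included in the edgeR fit, 0 of 47 members had an unadjusted p under 0.05, against 3.47% of all genes tested, and 0 passed adjustment, against 0.00751%. In limma voom with sample quality weights, which also used all 12 libraries, 10 members had an unadjusted p under 0.05, 3 higher and 7 lower, against 26.8% of all genes tested, and 0 passed adjustment. In the edgeR fit to 12 libraries the 95% interval lay within 2-fold for all 47 members and within 1.5-fold for 37.

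The members' fold changes went with the GC content of their transcripts. Members had a median GC content of 46.2% against 49.3% for genes tested, and 37 of 47 lay under the latter. Of these 37, 22 had higher and 15 lower values in KO (median 0.08), whereas of the other 10, 2 were higher and 8 lower (median -0.21). Among all genes tested the low-GC side held 4685 higher and 2029 lower values and the high-GC side 2046 higher and 4668 lower. Across the 47 members the Spearman correlation of log2 fold change with GC content was -0.53, against -0.50 across all genes tested, where genes share the same 10 libraries and are not independent replicates.

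The libraries differed in the same measure. For each library, the median log2 ratio to the WT mean was taken for genes above 55% GC and for genes under 45%, and the difference of the 2 medians is the library GC measure. It lay between -0.18 and 0.22 in the 5 WT libraries. KO2 had -0.58, KO3 -0.61 and KO8 -0.53, while KO6 had -0.24, KO5 0.07, WT2 -0.999 and KO4 0.07. Xrcc1, with 59.3% GC the member highest in GC, was lowest in KO8, WT2, KO3 and KO2, the 4 libraries with the lowest GC measures. Parp1, with 52.7%, was lowest in WT2 and then in KO8, KO3 and KO6. The part of GC content in the members' differences was not tested beyond the offset fit that follows.

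**Figure D4:**
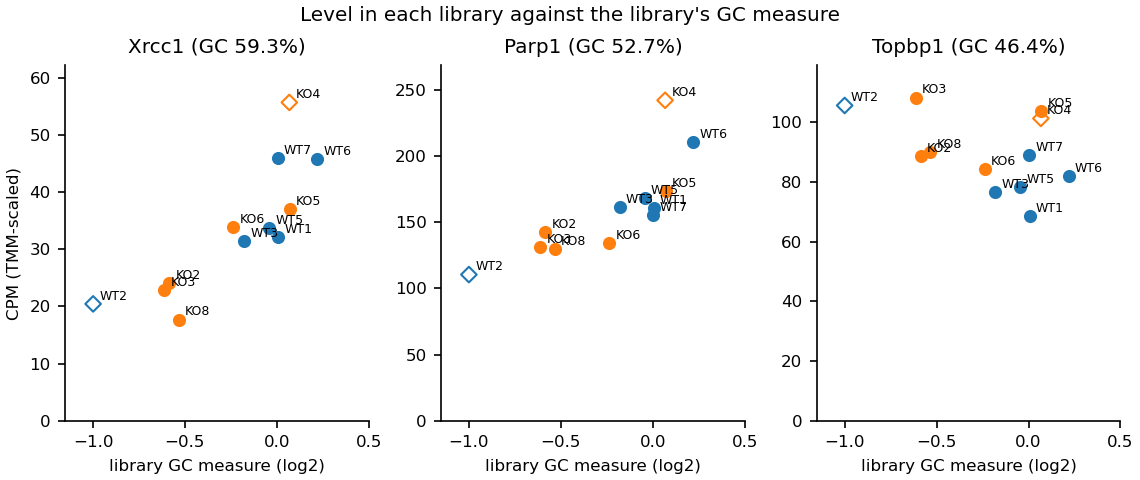
CPM of Xrcc1, Parp1 and Topbp1 in each of 12 libraries against the library GC measure, in log2 units. Blue is WT, orange is KO and open diamonds are WT2 and KO4. Xrcc1 and Parp1 are low in the libraries at the left, and Topbp1 has its highest values in KO3 and WT2.

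With each library's GC trend as an offset, the members had 18 higher and 29 lower fitted values, a median of -0.07, and 6 at an unadjusted p under 0.05, all lower, against 15.6% of all genes tested. None passed adjustment, against 0.0372% of all genes tested. Chek2 stood at -0.64 with an unadjusted p of 0.000796, so its difference was as large as without the offset. Trp53bp1 was at -0.28, Lig3 at -0.28, Fancd2 at -0.30 and Brca2 at -0.39. Xrcc1 went from -0.48 to -0.32, Parp1 from -0.27 to -0.17, Fancc from -0.35 to -0.25 and Topbp1 from 0.27 to 0.20, the last 3 with unadjusted p-values of 0.0833, 0.0534 and 0.0595. The same correlation across members was -0.03 after the offset. The offset takes out the GC trend over all genes, so a weaker correlation follows from how it is made.

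**Figure D5:**
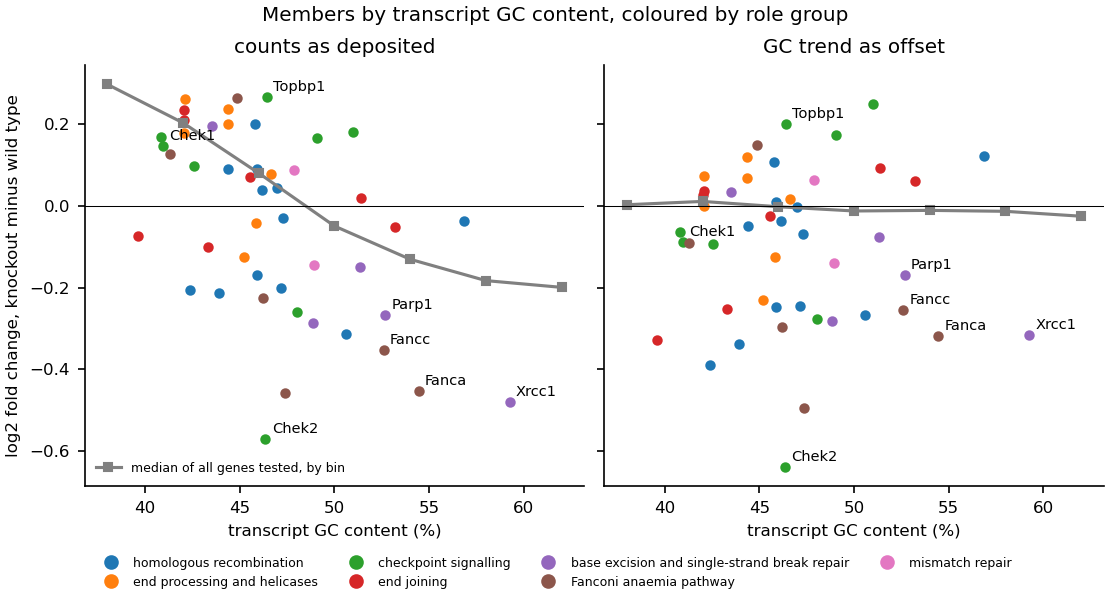
Log2 fold change, KO minus WT, of each member against the GC content of its transcript, with counts as deposited and with each library's GC trend as an offset. Grey squares are medians of all genes tested by bin of GC content. At the left the members slope down with GC content, and Chek2 stays lowest in both panels.

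The promoters of the members show what they share in sequence. RefSeq (GRCm38.p6) windows of 300 bases, from 250 before the start of transcription, were available for 37 of 48 members. An E2F-like motif, TTTCCCGC, TTTGGCGC or TTTCGCGC on either strand, was found in 9 of these 37 (24.3%), against 2.12% of 27025 genes with a window and 4.19% of 10157 tested genes. E2F proteins switch on genes of DNA replication as cells enter S phase. A CCAAT box was found in 23 of 37 (62.2%) against 43.3% of the tested genes, and a CHR-like motif, TTTGAA or TTCGAA, in 4 of 37 (10.8%) against 15.9%. The 41 windows of members had a median GC content of 59.7%, against 52.7% for all 32851 windows. The part of base composition in these motif shares was not tested. Such matches are letters in a window and do not show binding.

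The matches are printed with 10 bases on each side, read along the gene's strand, 5′ to 3′, with the motif in capitals, because they are what these 9 genes of different pathways have in common. A match on the other strand appears as its reverse complement.
Bard1, chr1:71103164-71103191, minus strand: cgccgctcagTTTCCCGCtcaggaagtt
Brca2, chr5:150522443-150522470, plus strand: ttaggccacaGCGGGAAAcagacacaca
Chek2, chr5:110839821-110839848, plus strand: gggattagccGCGGGAAAccaagacgtc
Clspn, chr4:126556991-126557018, plus strand: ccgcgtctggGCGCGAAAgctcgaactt
Mdc1, chr17:35841472-35841499, plus strand: cttcagcctgTTTCCCGCcggtagccgc
Msh6, chr17:87975055-87975082, plus strand: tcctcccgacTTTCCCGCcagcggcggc
Rad51c, chr11:87404478-87404505, minus strand: tttccagcgcTTTCGCGCctcttgctct
Rad51c, chr11:87404942-87404969, minus strand: ccccgcgaggGCGGGAAAagcaaggggt
Topbp1, chr9:103305188-103305215, plus strand: cgctcggttgGCGCGAAAgtcggttccc
Xrcc6, chr15:82016313-82016340, plus strand: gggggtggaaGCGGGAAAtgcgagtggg

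The 9 genes did not share a direction. Of them 5 had higher and 4 lower fitted values in KO, with a median log2 fold change of 0.09, against 14 higher and 13 lower and a median of 0.02 among the other 27 tested members with a window. They include both Chek2, the member with the lowest value, and Topbp1, the member with the highest.

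The whole windows of Chek2, Topbp1 and Fancc are shown because these members had the smallest p-values in their direction and a window. Capitals mark E2F-like motifs and CCAAT boxes (CCAAT or ATTGG).
Chek2, chr5:110839733-110840032, plus strand: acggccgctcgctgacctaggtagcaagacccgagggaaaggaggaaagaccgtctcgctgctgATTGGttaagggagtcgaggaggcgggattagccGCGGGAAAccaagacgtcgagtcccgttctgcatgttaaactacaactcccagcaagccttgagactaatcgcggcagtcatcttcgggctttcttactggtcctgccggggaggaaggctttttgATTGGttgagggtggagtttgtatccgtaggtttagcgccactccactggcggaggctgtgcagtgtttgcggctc
Topbp1, chr9:103305077-103305376, plus strand: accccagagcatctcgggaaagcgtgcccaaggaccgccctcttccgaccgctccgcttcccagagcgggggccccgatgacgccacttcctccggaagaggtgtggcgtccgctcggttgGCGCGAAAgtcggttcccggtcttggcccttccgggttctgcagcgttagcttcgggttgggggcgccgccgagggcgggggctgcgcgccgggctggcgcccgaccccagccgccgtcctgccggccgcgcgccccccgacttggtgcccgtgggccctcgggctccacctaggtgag
Fancc, chr13:63431696-63431995, minus strand: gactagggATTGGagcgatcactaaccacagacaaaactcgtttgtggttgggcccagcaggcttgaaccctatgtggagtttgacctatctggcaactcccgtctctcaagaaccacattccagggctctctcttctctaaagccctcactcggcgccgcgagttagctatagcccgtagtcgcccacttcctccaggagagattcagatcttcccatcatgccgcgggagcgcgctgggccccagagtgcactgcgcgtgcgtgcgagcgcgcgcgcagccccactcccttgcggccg

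The Chek2 window holds 1 E2F-like match and 2 CCAAT boxes, has a GC content of 56.7% and ends 50 bases into the transcript. The Topbp1 window holds 1 E2F-like match, no CCAAT box and 73.7% GC, and the Fancc window holds 1 CCAAT box near its far end, no E2F-like match and 60.3% GC.

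Other repair genes were counted for comparison, in 8 lists with 129 genes, of which 124 were tested. None was called, and 30 (24.2%) had an unadjusted p under 0.05, 17 higher and 13 lower, near the 21.8% of all genes. DESeq2 called 3 of them, and 3.34% of all genes tested. Without KO5, 37 were called and 48 (38.7%) had an unadjusted p under 0.05, against 22.9% and 35.5% of all genes tested. The latter count was 15 without KO3 (12%, against 14.1%) and 19 without WT6 (15.2%, against 14.7%). With 12 libraries it was 6 by edgeR (4.84%, against 3.47%) and 39 by limma voom with quality weights (31.5%, against 26.8%). The smallest p belonged to Shprh, a ubiquitin ligase of damage tolerance, with 51.5 ± 10.4 CPM in WT and 75.8 ± 12.8 in KO (SD, n = 5 each; log2 fold change 0.56, adjusted p = 0.128). Its list of translesion synthesis and direct reversal genes had 4 of 14 tested at an unadjusted p under 0.05, of which 3 were higher, against 21.8% of all genes tested. Ube2a, the conjugating enzyme of the same pathway, was at 0.35.

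In the further mismatch repair list, Mlh3 had a log2 fold change of 0.40. In nucleotide excision repair, 10 of 19 tested genes had higher fitted values. At an unadjusted p under 0.05 there were 3 higher and 2 lower, against 11.8% and 9.97% of all genes tested. Uvssa, of the branch coupled to transcription, was at 0.81. Uvssa varied strongly among KO libraries (20.3 ± 10.03 CPM, against 11.6 ± 2.60 in WT).

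The counts of the lists that follow stand beside 11.8% higher and 9.97% lower of all genes tested at an unadjusted p under 0.05. The lists were not tested against these shares. In the list of further recombination genes, 12 of 26 had higher fitted values, and 5 higher and 1 lower had an unadjusted p under 0.05, with Rmi1, a partner of Blm, at 0.54 and the fork protein Tonsl at -0.36. Among further checkpoint and break-signalling genes, 11 of 24 had higher fitted values, and the same threshold was passed by 4 higher and 3 lower, with Babam1 of the Brca1-A complex at -0.38 and the Atr activator Etaa1 at 0.40. Of the further end-joining genes Paxx, which binds Ku, was at -0.20. In the further base excision list 5 of 18 had higher fitted values and 1 gene passed that threshold, the replicative ligase Lig1 at -0.31, with the glycosylase Neil3 at 0.25. In the further Fanconi list 6 of 12 had higher fitted values, and 1 higher and 2 lower passed the threshold, with the nuclease Ercc4 at -0.50 and Wdr48, a cofactor of the Fancd2 deubiquitinase, at -0.33.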

How the data were processed

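RNA was extracted from micro-dissected EGL and made into NEBNext Ultra libraries, per the labels' protocols. The authors deposited read counts per gene, whole numbers and not normalized, 1 table for each of 12 libraries. They list STAR 2.5.3a, HTSeq 0.6.1, cutadapt 1.16 and DESeq2, and build mm10, per the submitters' processing notes. Counting options and annotation release were not given in the sources used here. Rows without a gene were left out: among reads with a unique place, those outside genes made up 10.8% to 14.7% and those shared by several genes 6.81% to 8.13%. Records aligned to several places, also left out, made up 64.4% to 67.6% of all records. A read can give several such records, so this is not a share of reads. Counts of the 30 library pairs within a group differed beyond sampling noise, with a chi-square of at least 6.60 per degree of freedom.

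Symbols, positions and exon lengths came from GENCODE M21. The members and all lists were chosen with earlier results of these data known. Genes passed filterByExpr (minimum count 10) and were fitted across all genes with TMM scaling and edgeR's robust quasi-likelihood test (edgeR 4.0.16, limma 3.58.1, R 4.3.3), with Benjamini-Hochberg adjustment and a threshold of 0.05. CPM used factors over 12 libraries. Two-sided exact permutation tests were on log2 of CPM plus 1. Per role group, the 3 members with the smallest p and the one with the highest WT level per kilobase were given in every library, and of other repair lists the 2 smallest p were named, though the results of some genes are not reported here. Fancd2, which has groups that do not overlap, and Polb were added after their values were seen. The procedure was also run on simulated counts, drawn without a GC trend and without marked libraries. That run does not cover these features of the data. Alternatives were DESeq2 1.42.0, limma voom with quality weights, RLE factors, other filters, all 12 libraries, KO2 as WT, each library's spline trend of log2 CPM on GC content (5 degrees of freedom) as an offset, a replicate block and each library left out. A GC offset on 12 libraries and an unblocked fit to the 6 libraries with shared numbers were added after seeing the data.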

Additional observations from a re-analysis of the deposited data

Results flagged for a closer look

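Each member's 5 WT and 5 KO values were searched for a highest or lowest library whose gap to the nearest other was more than 0.71 of the whole range. Of 94 groups of values, 7 met this, and chance flags about 1 in 20. In WT6 the highest of 5 values stood apart for Brca2 (22.4 CPM, others 13.8 to 15.4), Clspn (24.9 CPM, others 19.7 to 20.9) and Parp1 (210 CPM, others 155 to 168). WT6 is also the library with the fewest counts. In WT3 the lowest value stood apart for Nbn (12.1 CPM, others 14.5 to 15.4) and Nhej1 (6.27 CPM, others 11.9 to 14.1). Among KO libraries, Xrcc4 was lowest in KO5 (11.7 CPM, others 17.4 to 19.0) and Fancd2 in KO8 (10.1 CPM, others 11.8 to 12.3).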

How the results depend on the processing

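Genes called numbered 3 in the comparison reported, 449 with DESeq2, 965 with no filter, 5 with the GC offset and 1 with 12 libraries. With edgeR, 0 were called with KO2 as WT, with a replicate block, with the block and GC offset, and in the same 6 libraries without it (756, 606, 581 and 524 at an unadjusted p under 0.05). Leaving out 1 library gave 0 to 3102 genes and 0 to 4 members called, and 4 to 11 members at an unadjusted p under 0.05. DESeq2 and no filter called 1 member each. Members at an unadjusted p under 0.05 numbered 8, but 2 with KO2 as WT and 0 with 12 libraries, GC offset on 12 libraries, block, block and GC offset, or 6 libraries without block, all by edgeR, and 10 by limma voom with quality weights on 12 libraries.

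No pairing by shared replicate number was seen in the counts: deviations of the 3 same-numbered pairs correlated at -0.0467 to 0.111, and 0 WT libraries correlated best with their own number. With 3 pairs, this cannot settle whether libraries of the same number are linked. Values under the alternatives were counted for the 23 members chosen by smallest p or highest level in their role group. Of these 506 values, 485 kept direction and side of the threshold, 6 passed it newly and 15 changed sign. The GC offset gave Rad51c -0.0478, Chek1 -0.0882 and Xrcc5 -0.0251. With the replicate block and GC offset, Rad51c was -0.0684, Chek1 -0.0374, Xrcc5 -0.0354 and Apex1 0.0668. The replicate block alone gave Apex1 0.0393 and Msh6 0.00672, and the 6 libraries without it 0.0343 and 0.00924. The GC offset on 12 libraries gave Chek1 -0.0303, Xrcc4 -0.0171 and Parp1 0.0304, and leaving out 1 library moved Pms2 between -0.0132 (without WT3) and 0.193 (without WT6). Members outside the 23 were not counted, and some of them also changed sign. Atr went from 0.17 to -0.06 with the GC offset, and Polb from 0.20 to -0.11 with 12 libraries. The cause of these changes was not tested.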
